A study of Mus musculus with 6 samples.

Results

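A set of 8 genes that mark the endothelium of the kidney glomerulus was followed in CD31-sorted kidney cells: Ehd3, Sost, Gata5, Tbx3, Pi16, Nostrin, Fabp1 and Mapt. They were taken by symbol from the 55487 genes of the FPKM matrix, and all 8 were found. FPKM is a count of sequenced fragments scaled by gene length and by library size, so levels of different genes can be set side by side. Libraries came from 6 mice that were switched at 8 weeks of age to a high-fat diet (60% of energy as fat) and kept on it for 4 weeks. The 3 control mice were wild-type littermates. The other 3 mice, called I-PpoI here, carried VE-cadherin Cre and a STOP-I-PpoI allele that the labels place at ROSA26 in mouse 1, at ROSA27 in mouse 2 and at ROSA28 in mouse 3. That running number may be a labelling slip, and no difference in genotype among these mice is read from it. I-PpoI is an endonuclease that cuts both DNA strands, and VE-cadherin is made by endothelium of all vessels, so the allele was not aimed at the glomerulus. Whole kidneys were digested and sorted, and glomerular cells were therefore one part of each mixture. Values of a group are given in the order of mice 1, 2 and 3.

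The glomerulus is a tuft of capillaries that filters the blood. Its endothelial cells are very flat, are pierced by open pores, and lie against podocytes, which supply them with VEGF-A. They express genes that other kidney vessels express weakly or not at all, among them the membrane-recycling ATPase gene Ehd3 and the transcription factor genes Gata5 and Tbx3.

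The libraries differed in ways that touch every member. Whole fragments recovered from FPKM came to 14081222 to 16954480 in the controls and 13324303 in I-PpoI mouse 3, but to 1590957 and 834149 in I-PpoI mice 1 and 2. In these last 2 libraries, gene models annotated as antisense took 14.7% and 10.02% of fragments, against 0.120 to 0.225% in the other 4. Of their mitochondrial fragments, 68.2% and 70.6% lay on genes of the minus strand, against at most 0.0821% in the others. What the FPKM of a gene measures in these 2 libraries is therefore uncertain, and every member level, ratio and fold change that uses them carries that limit. Mitochondrial genes took 8.83 to 18.3% of fragments in controls against 6.42%, 38.2% and 48.2% with I-PpoI. Fragments of the Y-linked gene Ddx3y numbered 959 to 1672 in controls and 20, 0 and 0 with I-PpoI, which is 13.1 to 19.0 FPKM against 2.40, 0 and 0 FPKM. The labels give no sex, and its part in the results was not tested. Fewer cells of a type and less RNA per cell cannot be told apart in such bulk samples.

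Of the 8 genes, 7 were well expressed in the control preparations and 1 was not. Ehd3, whose product tubulates endosomal membranes and returns receptors to the cell surface, was the highest (ENSMUSG00000024065, GRCm38 chromosome 17, 73804134 to 73832094). It stood at 215, 214 and 221 FPKM in controls, an SD of 1.7% of their mean. This placed it above 99.3 to 99.6% of protein-coding genes. Pi16, a secreted member of the CAP protein family (ENSMUSG00000024011, chromosome 17, 29317680 to 29330593), followed at 139, 168 and 111 FPKM. Its range lay below that of Ehd3 and above that of every other member.

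The next 5 genes could be ranked only in part. Nostrin, an F-BAR adaptor that binds endothelial nitric oxide synthase (ENSMUSG00000034738, chromosome 2, 69135800 to 69189330), was at 45.8 ± 6.77 FPKM in controls (SD, n = 3). The T-box repressor gene Tbx3 (ENSMUSG00000018604, chromosome 5, 119670669 to 119684724) was at 42.4 ± 3.49 FPKM. Sost, which encodes the secreted Wnt inhibitor sclerostin (ENSMUSG00000001494, chromosome 11, 101962458 to 101967015), was at 41.3 ± 9.21 FPKM. The zinc-finger factor gene Gata5 (ENSMUSG00000015627, chromosome 2, 180325133 to 180334699) was at 32.2 ± 8.12 FPKM. Mapt, the gene for the microtubule-binding protein tau (ENSMUSG00000018411, chromosome 11, 104231390 to 104332090), was at 27.5 ± 4.52 FPKM. From Nostrin down to Mapt, the ranges over 3 control mice of each gene and the next overlapped. The ranges of Nostrin (39.7 to 53.1 FPKM) and Tbx3 (39.7 to 46.3 FPKM) lay wholly above that of Mapt (24.8 to 32.7 FPKM).

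Fabp1 went against the label. It encodes the liver-type fatty acid binding protein (ENSMUSG00000054422, chromosome 6, 71199827 to 71205023), and it was listed at 0, 0.129 and 0 FPKM in controls. These values rest on 0, 1 and 0 fragments, and at a count of 0 as many as 3 fragments could be missed, or 0.336 FPKM in control mouse 1 and 0.320 FPKM in control mouse 3. By name Fabp1 is a marker of the set, but glomerular expression of it was not detectable in these controls at this depth.

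Sequences upstream of the starts are shown for the highest and the undetected member. RefSeq promoters (GRCm38.p6) were on hand for 6 of the 8 genes, and the printed stretch is the 250 bases before the RefSeq start. Capitals mark the ETS core GGAA and the GATA core GATAA on either strand, which were the motifs searched and do not overlap each other here. Binding and chromatin were not analysed here, so the stretches are a description. The Ehd3 stretch is chr17:73804591-73804840, plus strand, wholly inside the gene span given above because RefSeq starts the gene downstream of the file's start. The Fabp1 stretch is chr6:71199629-71199878, plus strand, and its last part lies inside the Fabp1 gene span for the same reason.
Ehd3: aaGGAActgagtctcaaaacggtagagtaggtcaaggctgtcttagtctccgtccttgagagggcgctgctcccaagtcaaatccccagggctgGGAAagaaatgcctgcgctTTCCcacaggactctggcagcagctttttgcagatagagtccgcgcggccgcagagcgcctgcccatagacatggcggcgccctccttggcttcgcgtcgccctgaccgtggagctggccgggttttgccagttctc
Fabp1: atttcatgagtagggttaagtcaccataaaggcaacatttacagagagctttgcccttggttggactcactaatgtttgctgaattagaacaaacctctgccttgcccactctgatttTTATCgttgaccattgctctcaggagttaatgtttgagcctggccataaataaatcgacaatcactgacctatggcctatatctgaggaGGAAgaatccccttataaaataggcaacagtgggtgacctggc
The Ehd3 stretch holds 3 ETS cores and 0 GATA cores, and the Fabp1 stretch holds 1 of each. Of 27025 promoters of this length, 93.4% hold an ETS core and 23.0% a GATA core, so the first is nearly universal. The stretches of Pi16, Nostrin, Sost and Gata5 hold 4, 7, 2 and 2 ETS cores and 0 GATA cores each. The Pi16 stretch lies wholly, and the Gata5 stretch partly, inside the gene span of the file.

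**Figure D1:**
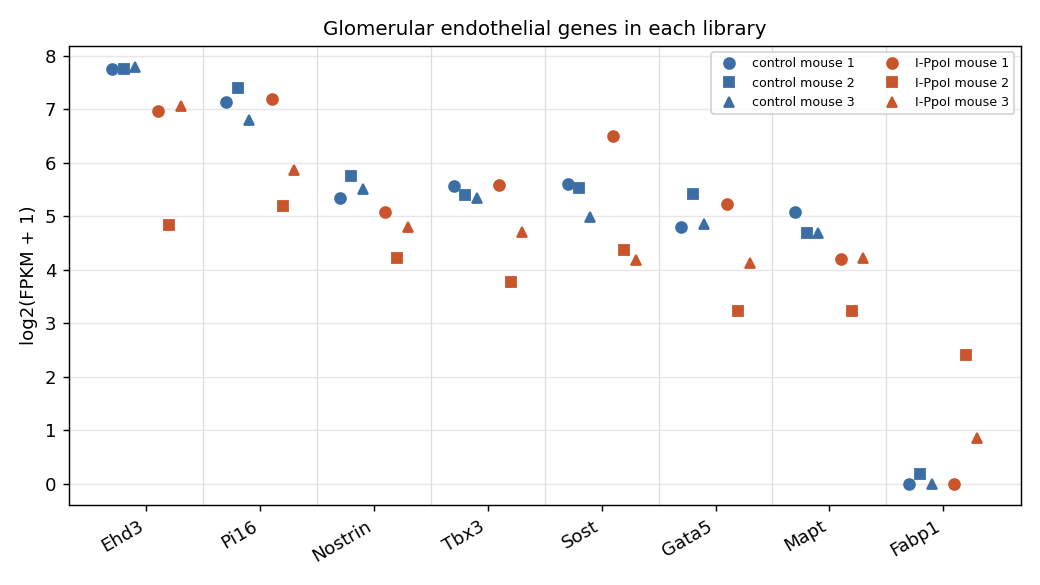
Level of each gene as log2(FPKM + 1), 1 point per library, with controls in blue, I-PpoI mice in orange and the marker giving the mouse number. The 3 control points of Ehd3 nearly coincide at 214 to 221 FPKM, I-PpoI mouse 2 is the lowest point for Ehd3 (27.7 FPKM), and the Fabp1 controls lie at or near 0.

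Genes of podocytes, the other cells of the filter, were not at even levels among the controls. The summed FPKM of 8 podocyte genes was 1538, 733 and 763 in controls. The summed FPKM of the 8 glomerular endothelial genes was 548, 588 and 500 in the same libraries, so control mouse 1 stood apart for podocyte genes and not for these. With I-PpoI the podocyte sum was 520, 187 and 369 FPKM and that of the glomerular endothelial genes 493, 134 and 295 FPKM. The part of podocyte RNA in the member values was not tested. Podxl, the leading podocyte gene here, gave 940.5, 549 and 590 FPKM of the control sums and is also made by endothelium. The sum of the 7 mesangial and mural genes was also highest in control mouse 1, at 768.5, 604.5 and 552.7 FPKM in controls. Pi16 is also known from some fibroblasts. The 5 fibroblast genes summed to 6.45 to 17.0 FPKM in controls, of which Col1a2 gave 3.19 to 9.51, Pdgfra 1.65 to 5.72, Col1a1 0.715 to 1.60, Dcn 0.424 to 0.840 and Lum at most 0.0581 FPKM. The part of fibroblast RNA in the Pi16 values was not tested.

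The I-PpoI means of Ehd3, Nostrin, Mapt, Tbx3, Pi16 and Gata5 lay below the control means, that of Sost did not, and no member passed the test. The comparison asks whether these genes differed between I-PpoI and control mice. Limma on log2(FPKM + 1) called 0 of the 7 members tested, and 0% of 14962 genes, at adjusted p under 0.05. Fabp1 was below the filter of a mean of 1 FPKM. All 7 log2 fold changes were below 0, with a median of -0.84. The median over all genes tested was -0.65. Without adjustment, limma at a threshold of 0.05 called 0 of 7 members lower, against 32.2% of all genes tested. Mapt (0.05002) and Nostrin (0.05005) missed that threshold only in the last of these digits and Ehd3 (0.0553) narrowly, so nothing is read from the count of 0.

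Ehd3 was at 124, 27.7 and 133 FPKM with I-PpoI, all below the 214 to 221 FPKM of the controls. Its log2 fold change was -1.48 (SE 0.63, limma adjusted p = 0.135). Most of that came from I-PpoI mouse 2, which lay 2.93 below the control mean on the log2 scale, where mice 1 and 3 lay at -0.81 and -0.71. The Ehd3 value of I-PpoI mouse 2 rests on 152 fragments, against 19767 to 24586 in controls. Mapt was at 17.4, 8.40 and 17.8 FPKM against 24.8 to 32.7 FPKM, a log2 fold change of -0.93 (SE 0.39, limma adjusted p = 0.135). Nostrin was at 32.7, 17.7 and 26.9 FPKM against 39.7 to 53.1 FPKM, at -0.84 (SE 0.35, limma adjusted p = 0.135). These 3 genes were the members whose groups did not overlap, 3 of 7, and 45.1% of all genes tested had I-PpoI values below every control in the same way. With I-PpoI mouse 2 left out the log2 fold change was -0.76 for Ehd3 and -0.61 for Mapt.

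The other 4 members had I-PpoI mouse 1 inside or above the control range. Sost was the clearest case, at 89.6, 19.6 and 17.3 FPKM with I-PpoI against 30.8 to 47.9 FPKM in controls. Its log2 fold change was -0.36 (SE 0.66, limma adjusted p = 0.664). Pi16 was at 146, 35.6 and 57.6 FPKM (log2 fold change -1.02, SE 0.56) and Gata5 at 36.7, 8.38 and 16.4 FPKM (-0.83, SE 0.55). Tbx3 was at 47.1, 12.6 and 25.1 FPKM (-0.75, SE 0.50). Limma adjusted p was 0.179, 0.255 and 0.254 for these 3 genes. In each of the 4, I-PpoI mice 2 and 3 were below every control and I-PpoI mouse 1 was not. Without I-PpoI mouse 1 the log2 fold changes were -1.10 for Sost, -1.58 for Pi16, -1.35 for Gata5 and -1.20 for Tbx3. Without I-PpoI mouse 2 they were -0.032, -0.58, -0.34 and -0.29 in the same order. Sost was at -0.55 without control mouse 3 and at 0.057 without I-PpoI mouse 3.

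**Figure D2:**
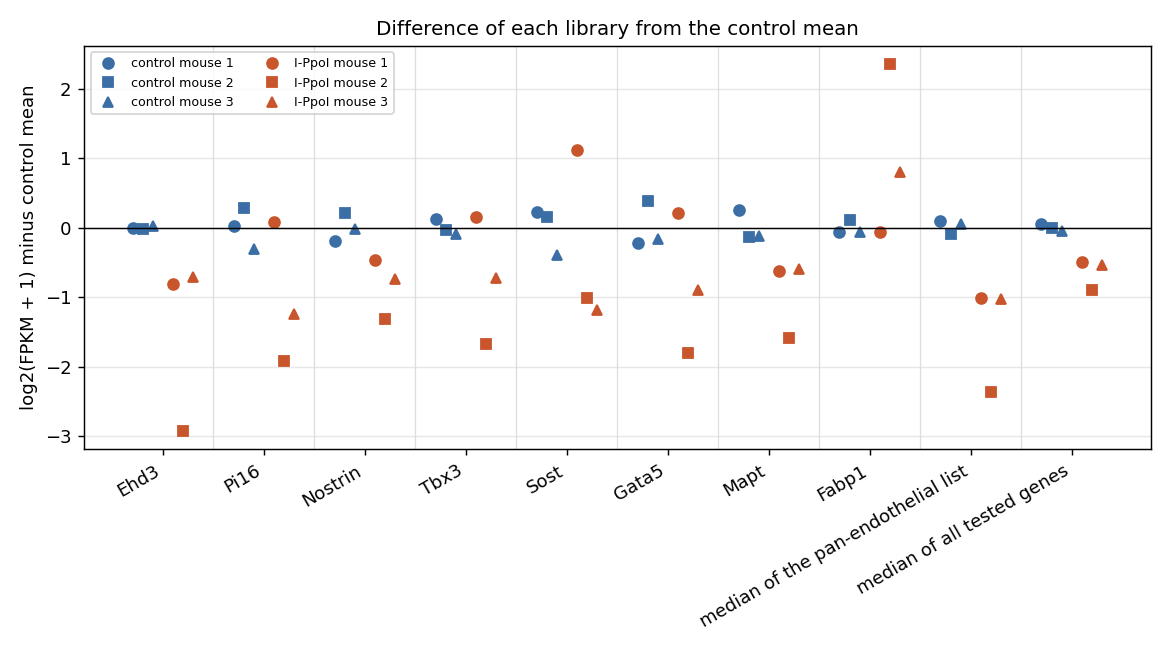
Difference of each library from the control mean on the log2(FPKM + 1) scale, for the 8 genes, the median of 15 pan-endothelial genes and the median of all tested genes. I-PpoI mouse 2 is lowest for Ehd3 (-2.93) and for the pan-endothelial median (-2.37), and I-PpoI mouse 1 is above 0 for Sost (1.12), Gata5, Tbx3 and Pi16.

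I-PpoI mouse 3 was the one I-PpoI library with recovered fragments and an antisense share like those of the controls, and it has no replicate. Its mitochondrial share was not like theirs, at 48.2% of fragments against 8.83 to 18.3% in controls. The part of this share in the values below was not tested. All 7 members were below every control in I-PpoI mouse 3, as were 70.7% of all genes tested. Mapt, Ehd3, Tbx3 and Nostrin were at 0.646, 0.612, 0.594 and 0.586 of their control means. Gata5 was at 0.511, Sost at 0.418 and Pi16 at 0.414 of the control mean. The pan-endothelial median lay at -1.03 on the log2 scale in this library, lower than Ehd3, Mapt, Tbx3, Nostrin and Gata5 and above Sost and Pi16. With I-PpoI mouse 3 left out, limma called Ehd3 (-1.87, adjusted p = 0.0346) and Mapt (-1.10, adjusted p = 0.0416) lower, 2 of 7 members, while 36.1% of all genes tested were called lower.

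Scaling brought the groups together. With each library scaled by its median ratio over all genes, Ehd3 was at 151, 166 and 175 in controls and at 144, 45.8 and 161 with I-PpoI, so that mouse 3 lay within the control range. Its log2 fold change became -0.67 (SE 0.52, limma adjusted p = 0.472). The groups overlapped for all 7 members, where 10.7% of all genes tested still had I-PpoI below every control. The median log2 fold change of the members was -0.055 and that of all genes -0.015. Sost (0.43) and Tbx3 (0.039) took the opposite sign under this scaling, and 5 of 7 members stayed below 0.

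At several member loci, genes on the opposite strand held most of the fragments in I-PpoI mice 1 and 2. AC162182.1, an antisense model inside Pi16 (chromosome 17, 29319981 to 29322549), was at 9.25, 11.6 and 8.80 FPKM in controls and at 1145, 301 and 4.76 FPKM with I-PpoI. Of the fragments on Pi16 and this model together, 76.0% (95% exact Clopper-Pearson interval 74.9 to 77.1%) and 77.3% (74.3 to 80.1%) lay on the antisense model in I-PpoI mice 1 and 2. I-PpoI mouse 3 had 3.23% there, and controls had 2.61 to 3.10%.

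Gata5os, which overlaps an exon of Gata5 (chromosome 2, 180332857 to 180340732), was at 0.996, 1.91 and 1.34 FPKM in controls and at 180, 46.9 and 1.43 FPKM with I-PpoI. It took 71.5% and 74.2% of the joint fragments in I-PpoI mice 1 and 2, against 1.86 to 4.27% in the other 4 libraries. Tbx3os1, which overlaps an exon of Tbx3, took 34.7% and 30.7%, against 4.84 to 6.35%. The listed value of Gata5 in I-PpoI mouse 2 rests on 23 fragments (14.6 to 34.5 by the exact interval). Intervals here cover counting error only.

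Neighbours that do not overlap a member exon were mixed. Gm20659, within 5 kb of Sost, was at 1.27 to 6.47 FPKM in controls and 2729, 1160 and 0.745 FPKM with I-PpoI. Spc25, a kinetochore gene within 5 kb of Nostrin, was at 0.888 to 1.63 FPKM in controls and 18.6, 8.24 and 2.21 FPKM with I-PpoI. Kansl1 next to Mapt took 20.9 to 25.6% of joint fragments in the I-PpoI mice and 18.5 to 28.8% in controls, with no such shift. Mtch1 next to Pi16 also had none, with shares between 19.6 and 30.3% over the 6 libraries. The remaining 2 neighbours, 4930417O22Rik by Sost and Tbx3os2 by Tbx3, held at most 16 fragments in any library. Ehd3 and Fabp1 had no annotated gene on the other strand within 5 kb of an exon. The part of the strand shift in the member values was not tested.

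**Figure D3:**
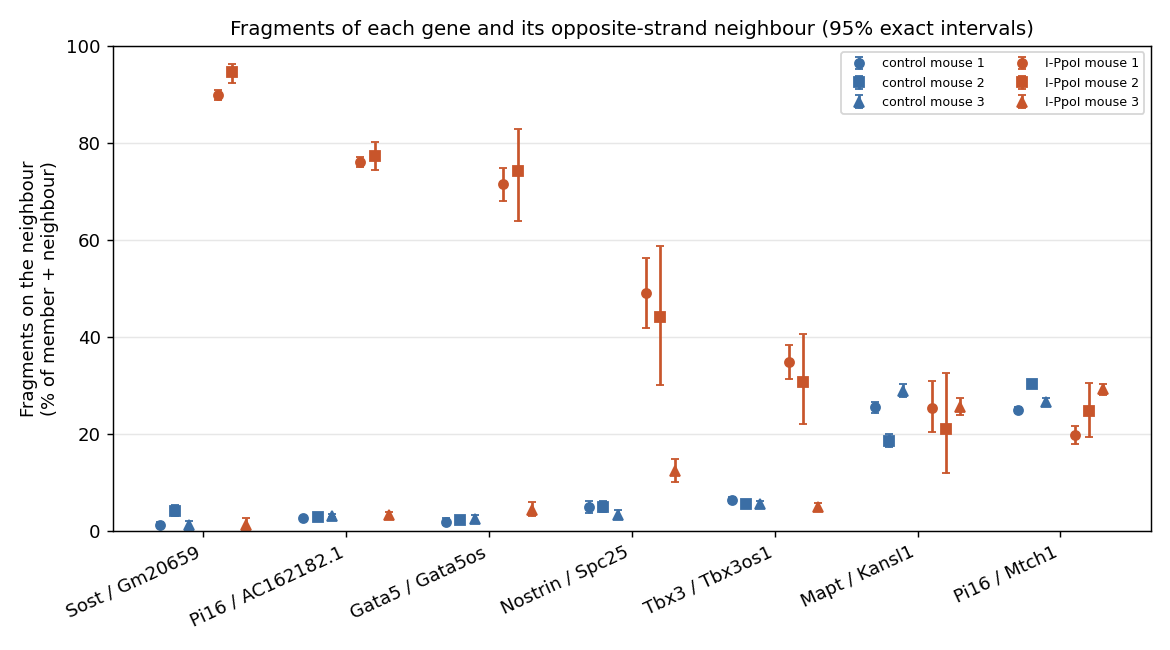
Share of fragments that lay on the opposite-strand neighbour, as a percent of member and neighbour fragments together, for 7 pairs in each library, with 95% exact intervals. I-PpoI mice 1 and 2 stand at 71.5 to 94.5% for Sost with Gm20659, Pi16 with AC162182.1 and Gata5 with Gata5os, where the other 4 libraries stand below 5%.

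The second comparison set each member against the endothelium of the same library, as its log2 value minus the median of 15 pan-endothelial genes. Ehd3 was at 0.41, 0.71 and 0.57 in controls and at 0.67, 0.017 and 0.98 with I-PpoI. The groups overlapped, and the means differed by -0.0047. I-PpoI mouse 3 alone stood 0.42 above the control mean. The difference was 0.27 once I-PpoI mouse 2 was dropped, 0.071 once control mouse 2 was dropped and -0.22 once I-PpoI mouse 3 was dropped, so its sign rests on single libraries. Tbx3 was at -1.79, -1.64 and -1.88 in controls and -0.70, -1.06 and -1.37 in I-PpoI mice, a difference of 0.73. Mapt was at -2.28, -2.35 and -2.53 in controls and -2.09, -1.59 and -1.85 in I-PpoI mice, a difference of 0.54.

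For Tbx3 and Mapt, every I-PpoI value was above every control value, 2 of 7 members, and 45.6% of all genes tested had groups apart in either direction on this scale. The exact two-sided permutation test gave p = 0.10 for each, the smallest that 3 against 3 allows, and 0.28 when adjusted over the 7 members. A second reference was the 6 pan-endothelial genes that have no gene on the other strand nearby. With it the Tbx3 groups overlapped (exact permutation p = 0.20) and the Mapt groups did not. The share of all genes with groups apart was not computed for this reference, so nothing particular to Mapt is read from it. Sost differed by 1.12, Gata5 by 0.65, Nostrin by 0.64 and Pi16 by 0.45, each with overlapping groups (exact permutation p = 0.20 to 0.30, adjusted 0.28 to 0.35). Without I-PpoI mouse 1 the difference was 0.65 for Sost, 0.40 for Gata5 and 0.175 for Pi16, and without I-PpoI mouse 3 it was 1.71 for Sost and 0.73 for Pi16. Pi16 was at 0.68 without control mouse 2 and 0.29 without control mouse 3, and Nostrin at 0.42 without I-PpoI mouse 2. In I-PpoI mouse 3 alone, Sost was 0.063 and Pi16 0.11 below the control mean on this scale (differences of -0.063 and -0.11), and Tbx3 and Mapt were 0.40 and 0.53 above it.

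**Figure D4:**
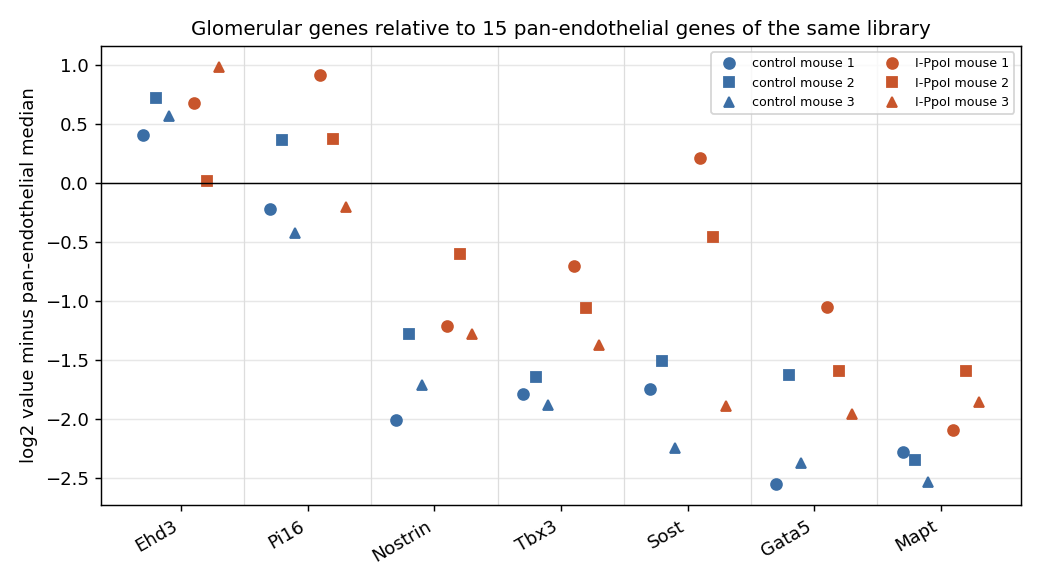
Each of 7 members as its log2(FPKM + 1) minus the median of 15 pan-endothelial genes in the same library. Ehd3 is the one member above 0 in all 6 libraries, and Tbx3 and Mapt are the members whose I-PpoI points all lie above the control points.

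Fabp1 was at 0, 4.32 and 0.814 FPKM with I-PpoI, from 0, 2 and 6 fragments. The 3 fragments that a count of 0 allows equal 6.50 FPKM in I-PpoI mouse 2 and 0.407 FPKM in I-PpoI mouse 3, so the value of mouse 2 is below what a count of 0 allows and only that of mouse 3 is above it. Fabp1 is also known from the proximal tubule. Summed FPKM of 12 proximal tubule genes was 465, 1200 and 404 in controls and 194, 807 and 1668 with I-PpoI. The highest sum was in I-PpoI mouse 3. The Fabp1 values of I-PpoI mice 2 and 3 cannot be ranked at these counts, because their exact intervals overlap. Kap, which encodes a kidney androgen-regulated protein, made up much of the sum in control mouse 2, at 755 FPKM, and in I-PpoI mouse 3, at 710 FPKM, against 11.5 and 25.3 FPKM in I-PpoI mice 1 and 2. Of the 12 genes, 0 passed and 10 had a log2 fold change above 0. The endocytic receptor gene Lrp2 was at 2.33 to 3.65 FPKM in controls and at 0.784, 14.3 and 66.5 FPKM with I-PpoI. The part of tubule RNA in the Fabp1 values was not tested.

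Other genes that are strong in glomerular endothelium, though not restricted to it, were taken from a list of 10. None passed over all genes. Of the 10, 9 had I-PpoI values below every control, beside 45.1% of all genes tested, and with median-of-ratios scaling 4 did (Plat, Meis2, Prdm1 and Ets1, the last 3 named after their values were seen), beside 10.7%. Their median log2 fold change was -1.54 (-0.75 with median-of-ratios scaling), beside -1.46 (-0.68) for the pan-endothelial genes. Of the 15 pan-endothelial genes, 12 had I-PpoI values below every control, and 7 with median-of-ratios scaling. These counts were 6 and 5 of 7 arterial genes, and 4 and 1 of 6 peritubular and venous genes. Plat, which encodes tissue plasminogen activator, was at 355 ± 42.9 FPKM in control and 139 ± 68.2 in I-PpoI mice (SD, n = 3 each; limma adjusted p = 0.132). Emcn, the sialomucin endomucin, was at 297 ± 80.7 against 103 ± 56.8 FPKM. Among the 10 glomerular genes the exception was Smad6, an inhibitor of BMP signalling. It was at 197, 38.7 and 40.8 FPKM with I-PpoI against 72.2 to 112 FPKM in controls, with mouse 1 high as in Sost.

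Paralogs and partners of the members were read from 8 lists with 54 genes, of which 38 were tested. Limma called 0 in either direction, 34 were below 0 and the median was -0.84 (24 below 0 and a median of -0.25 with median-of-ratios scaling). Among the EHD proteins, which share the membrane-bending ATPase fold, Ehd4 was at 181, 149 and 171 FPKM in controls and at 84.0, 34.3 and 85.7 FPKM with I-PpoI. Ehd2, found at caveolae, was at 119 ± 25.4 FPKM in control and 38.7 ± 16.1 in I-PpoI mice, and Ehd1 at 33.3 ± 3.97 against 16.4 ± 1.70 FPKM (SD, n = 3 each). Ehd3 thus led its family in the controls, at 1.19, 1.44 and 1.29 times Ehd4. The ratio was 1.47, 0.808 and 1.55 with I-PpoI, and the exact permutation p was 1.0, also when adjusted over the 7 gene pairs compared.

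The relatives of the other members differed widely in level. Gata2, the main GATA gene of blood vessels, was at 40.5 ± 4.96 FPKM in control and 22.9 ± 19.8 in I-PpoI mice, close to Gata5 in control. Zfpm1, the gene of the GATA cofactor FOG-1, was at 39.5, 16.7 and 10.8 FPKM with I-PpoI against 20.5 to 24.0 FPKM, with mouse 1 high again. Gata1 had 1 fragment over the 6 libraries, and Gata4 was listed at 0 in each. Tbx2 was at 34.2 ± 10.8 against 27.2 ± 9.98 FPKM, while Tbx1 was below 1 FPKM in every library. Dkk2, another secreted Wnt inhibitor gene, was above Sost in every library, at 95.3 to 118 FPKM in controls and 120.5, 44.1 and 54.0 FPKM with I-PpoI. The Wnt co-receptor gene Lrp5 was at 19.0 ± 6.25 against 14.2 ± 7.14 FPKM. Among the CAP paralogs Crispld1 led in controls, at 17.6 ± 4.10 against 5.27 ± 2.06 FPKM, far below Pi16, followed by Glipr2 at 4.98 ± 0.35 against 2.20 ± 0.17 FPKM. Glipr1, of the same list, was at 0.922, 2.35 and 2.29 FPKM in controls and at 88.9, 54.1 and 2.58 FPKM with I-PpoI. Its log2 fold change was 3.24 (SE 1.19, limma adjusted p = 0.132). The high values were in I-PpoI mice 1 and 2, the libraries with the strand shift. The part of that shift in them was not tested. Of the microtubule-associated genes, Map4 was at 30.1 ± 4.23 against 11.4 ± 4.96 FPKM, near Mapt in controls, and Map7 at 1.97 ± 0.22 against 3.10 ± 0.85 FPKM. Fabp4 was the leading fatty acid binding gene, at 56.4 ± 29.2 against 20.9 ± 3.08 FPKM, and Fabp3 stood at 14.6 ± 6.97 against 17.6 ± 6.15 FPKM. Of the NOSTRIN partners, the synthase gene Nos3 was at 95.3 ± 21.8 against 49.9 ± 29.9 FPKM, though it shares exon sequence with a gene on the other strand, and the caveolin gene Cav1 at 98.9 ± 6.75 against 25.9 ± 14.9 FPKM (SD, n = 3 each; limma adjusted p = 0.132 for Cav1).

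Ehd3 varied across the 6 scaled libraries most like Ccdc117 (Pearson r = 0.995), Kcnj5 (0.994) and Qars (0.993), of 6656 protein-coding genes whose mean reached 5 FPKM. Ehd3 and each of the 3 genes were lowest in I-PpoI mouse 2, the library with the fewest recovered fragments. Scaled Ccdc117 was at 0.587 there and at 8.83 to 11.2 in the others. The r values were not computed without that library. Among the members Mapt came closest to Ehd3 (r = 0.896), though only at rank 529 of the 6656 genes. Sost did not follow Ehd3 (r = -0.023). Its scaled value was 104 in I-PpoI mouse 1, a library with the strand shift, and 20.9 to 35.0 in the others.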

How the data were processed

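The deposited values are FPKM per gene from paired-end reads of 100 cycles. DESeq2 1.28.13 and the builds mm10 and GRCm38 are named in the submitters' processing notes. How reads were aligned, counted and assigned to strands is not given in the sources used here. Every label gives the same batch.

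Coordinates are those of the deposited file. Of its genes, 55141 are in GENCODE M21, whose merged exons gave lengths and opposite-strand neighbours. FPKM times length gave whole fragments, within 0.05, for 98.5 to 98.6% of values under 1000 fragments. These gave the fragment totals of libraries and the intervals.

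Limma was fitted to log2(FPKM + 1) over the 14962 genes averaging 1 FPKM or more, two-sided, and p-values were adjusted by Benjamini-Hochberg and read at 0.05. The pseudocount shrinks the fold changes of low genes. Median-of-ratios scaling divided each library by its median ratio to the gene-wise geometric mean. In simulated data for I-PpoI against control, 200 genes were changed before the filter and 12515 genes were tested. The share found was 11.7% of the 94 tested at 2-fold and 82.5% of the 97 tested at 4-fold. There, 10 unchanged genes were called. Counts were drawn around the mean control profile with the same fixed dispersion for every gene. Neither the strand shift nor other shifts between libraries were simulated, so these shares do not give the power in the real data. In the real data Cav1, at a log2 fold change of -2.04, was not called (limma adjusted p = 0.132).

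The members and gene lists were chosen with earlier results of these data known. Named genes are the members, their opposite-strand neighbours, the EHD genes, Nos3, Cav1, Lrp2, the top 2 of each list by control level and the 3 most like Ehd3, printed where they bear on a member. Ddx3y, Smad6, Gata1, Gata4, Glipr1, Meis2, Prdm1, Ets1 and fibroblast genes were named after their values were seen. Alternatives were other pseudocounts, filters and scaling, a replicate block, limma-voom on recovered fragments (which called 0 of 14945 genes) and libraries left out. A fit to strand-clear genes (no opposite-strand gene within 5 kb of an exon), and alternatives for related lists, were added after the data were seen. Software was limma 3.58.1 under R 4.3.3, and python 3.11.15 with scipy 1.17.1, pandas 2.3.3, numpy 2.4.6 and matplotlib 3.10.9.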

Additional observations from a re-analysis of the deposited data

How the results depend on the processing

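The count of 0 members past the threshold held under both other pseudocounts, both other filters, median-of-ratios scaling, the replicate block, limma-voom and the strand-clear fit, in which Ehd3 was the 1 member tested (-0.36). Over all genes it was also 0 under each of these. With 1 library left out, every count was 0 except without I-PpoI mouse 3, where only I-PpoI mice 1 and 2 remain in that group. These are the libraries with the strand shift. In that fit 8470 of 15110 genes passed, 3013 higher and 5457 (36.1%) lower. Of the lists, 2 of 7 members, 9 of 10 other glomerular genes and 17 of 37 related genes passed there. Without I-PpoI mice 1 and 2, 19 genes passed over all genes (17 higher, 2 lower), where the lone I-PpoI library is taken to vary as much as controls do, and 0 members. At unadjusted p under 0.05 limma gave 633 genes higher and 4824 lower as deposited, 792 and 487 with median-of-ratios scaling, and 373 and 155 with limma-voom.

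Signs turned for some members. With median-of-ratios scaling the log2 fold change was 0.43 for Sost and 0.039 for Tbx3. With limma-voom it was 0.30 for Sost, 0.13 for Tbx3, 0.052 for Gata5 and 0.0072 for Nostrin. With 1 library left out Sost ranged from -1.10 to 0.057, Ehd3 from -1.87 to -0.76, Pi16 from -1.58 to -0.58, Gata5 from -1.35 to -0.34, Tbx3 from -1.20 to -0.29, Mapt from -1.10 to -0.61 and Nostrin from -1.03 to -0.60. Relative to endothelium, Ehd3 was at 0.29 with 6 strand-clear reference genes, at -0.22 to 0.27 with 1 library left out and at 0.42 without I-PpoI mice 1 and 2, where Sost was at -0.063 and Pi16 at -0.11. The cause was not tested. Same-numbered mice correlated at 0.089, 0.063 and -0.020, so the replicate block, which called 0 genes, has no pairing behind it. Low totals of recovered fragments limit the values of I-PpoI mice 1 and 2. Recovered fragments are those assigned to genes, so these totals do not give the reads sequenced.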
